A study of Mus musculus with 6 samples.

Results

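Notch signalling was examined in mouse femur through 10 genes: the receptors Notch1, Notch2, Notch3 and Notch4, the ligands Jag1, Jag2, Dll1 and Dll4, and the target genes Hes1 and Hey1. They were chosen by name as parts of the pathway, and all 10 matched a row among the 22824 rows of each library. RNA came from femurs of C57BL/6 mice and was sequenced in 3 libraries of each of 2 groups. OE mice carried the 9.6kb DMP1-Cre and R26-Wnt7b alleles, homozygous per the labels, so that Cre under Dmp1 sequence, active in osteocytes and mature osteoblasts, switched on Wnt7b. Ctrl mice were littermates with R26-Wnt7b and no Cre, so the Wnt7b allele was present in both groups. The labels used here give no age, sex or pooling of animals, and nothing ties a library to 1 animal, so p-values cover only how these samples spread, part of which may be technical.

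Notch is a signal between touching cells. A ligand of the Jagged or Delta-like family on one cell binds a receptor on its neighbour, the receptor is cut by an ADAM protease and then by gamma-secretase, and the freed intracellular part joins RBPJ and Mastermind-like proteins in the nucleus to switch on genes such as Hes1 and Hey1, which encode repressors. In bone the pathway is known for restraining the maturation of osteoblasts from their progenitors, for roles in osteoclasts, and for the growth of bone vessels, where Notch4 and Dll4 mark endothelium and Notch3 marks the mural cells around vessels.

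Levels are in FPKM, which divides the fragments of a gene by its length and by the size of the library, so levels of different genes can be compared per length. Steps between the lowest values put the libraries at about 37400000 to 44100000 fragments, if the smallest step is 1 fragment. The transgene check did not separate the groups. Wnt7b stood at 2.49, 0.661 and 0.295 FPKM across OE 1 to OE 3 and at 0.00833 in Ctrl 2, it was listed at 0 in Ctrl 3, and the library labelled Ctrl 1 had 0.909. That library therefore lay inside the OE range. The difference of Wnt7b between groups was 0.65 on log2(FPKM + 1), and 2.05 with 0.1 added in place of 1. For values as low as these, the added 1 makes the difference smaller. The exact two-sided permutation p was 0.3, where 3 against 3 allow no p below 0.1. Every direction given for OE against Ctrl keeps the library labelled Ctrl 1 among the Ctrl libraries unless stated. Its sums of cartilage, osteoblast and skeletal muscle markers, given below, also lay in the OE range, and the cause was not tested. The labels call the femurs free of cartilage and marrow, yet the neutrophil genes S100a8 and S100a9 took 7.25% to 16.3% of all FPKM in a library. All 10 cartilage markers had a row, and they summed to 368 to 683 FPKM across OE, whereas the library labelled Ctrl 1 had 447 and Ctrl 2 and Ctrl 3 had 20.3 and 27.3.

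Notch1 and Notch2 were the abundant receptors, and neither differed between the groups beyond the spread of the libraries. Notch1 (chromosome 2, 26457903 to 26516663, minus strand, GRCm38) stood at 27.1, 26.1 and 17.0 FPKM across OE 1 to OE 3, whereas the library labelled Ctrl 1 had 31.7 and Ctrl 2 and Ctrl 3 had 28.4 and 31.0. Every OE library was below every Ctrl library, with OE 3 the lowest of the 6; with trimmed-mean scaling the groups overlapped. Among the 12177 genes tested, which reached 1 FPKM in 3 or more libraries, 8.97% were ordered this way. The difference, OE minus Ctrl on the log2(FPKM + 1) scale by limma, was -0.39 (SE 0.20, limma adjusted p = 0.561), and -0.18 without OE 3. Notch2 (chromosome 3, 98013527 to 98150361, plus strand), the receptor whose activating mutations cause a human bone loss disorder, stood at 29.1, 19.8 and 19.95 FPKM across OE 1 to OE 3, whereas the library labelled Ctrl 1 had 17.1 and Ctrl 2 and Ctrl 3 had 17.4 and 32.4. OE 1 and Ctrl 3 were its high libraries, 1 from each group. The difference was 0.08 (SE 0.28, limma adjusted p = 0.934), and its 95% interval of -0.60 to 0.75 on the log2 scale leaves room for a change in either direction.

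Notch3 and Notch4, the receptors of mural and endothelial cells, were less abundant and varied more. Notch3 (chromosome 17, 32120820 to 32166852, minus strand) stood at 10.5, 3.97 and 4.55 FPKM across OE 1 to OE 3, whereas the library labelled Ctrl 1 had 5.14 and Ctrl 2 and Ctrl 3 had 2.20 and 3.40. OE 1 was high, and Ctrl 2 and Ctrl 3 were the 2 lowest. Notch4 (chromosome 17, 34564268 to 34588503, plus strand) stood at 5.69, 2.91 and 2.89 FPKM across OE 1 to OE 3, whereas the library labelled Ctrl 1 had 4.43 and Ctrl 2 and Ctrl 3 had 1.52 and 1.69. The order was alike, and for both genes the groups overlapped, since the library labelled Ctrl 1 lay above 2 OE libraries. The log2 difference was 0.63 (SE 0.38, limma adjusted p = 0.577) for Notch3 and 0.49 (SE 0.36, adjusted p = 0.624) for Notch4. Without OE 1 these values moved to 0.25 and 0.23, without Ctrl 2 to 0.39 and 0.29, and without the library labelled Ctrl 1 Notch4 moved to 0.84. The span of an antisense gene, Gm17276, introns included, shares 21024 bases with that of Notch3. Other opposite-strand spans share 1488 bases with Notch1 (0610009E02Rik), 1873 with Dll1 (A930024N18Rik) and 2222 with Wnt7b (AU022754). Smaller overlaps are 414 bases with Notch1 (Gm13568), 411 with Dll4 (Gm14207) and 408 with Notch4 (Gm20462). Overlap of exons was not measured. No source used here gives a strand setting, so reads from any shared exon could not be told apart.

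The promoters of 4 genes are shown to set the 2 abundant receptors, which were not low in Ctrl 2 and Ctrl 3, beside 2 genes that were. Each is the 250 bases before the start in RefSeq on GRCm38.p6, read 5′ to 3′ along the gene. The window of Notch1 lies inside the GENCODE span given above, and those of Notch2 and Notch4 reach into theirs. Capitals mark CACGCG or its reverse complement CGCGTG, a site that HES proteins are known to bind.
Notch1, chr2:26503823-26504072, minus strand: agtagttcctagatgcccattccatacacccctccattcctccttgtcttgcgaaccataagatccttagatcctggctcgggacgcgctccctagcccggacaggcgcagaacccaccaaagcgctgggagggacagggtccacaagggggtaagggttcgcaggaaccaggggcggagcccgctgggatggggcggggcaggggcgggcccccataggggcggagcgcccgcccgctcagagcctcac
Notch2, chr3:98013288-98013537, plus strand: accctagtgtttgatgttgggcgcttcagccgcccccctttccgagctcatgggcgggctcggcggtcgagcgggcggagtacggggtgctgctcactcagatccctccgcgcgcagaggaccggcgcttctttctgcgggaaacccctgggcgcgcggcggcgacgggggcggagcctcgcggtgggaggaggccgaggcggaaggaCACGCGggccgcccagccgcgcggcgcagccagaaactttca
Notch4, chr17:34564045-34564294, plus strand: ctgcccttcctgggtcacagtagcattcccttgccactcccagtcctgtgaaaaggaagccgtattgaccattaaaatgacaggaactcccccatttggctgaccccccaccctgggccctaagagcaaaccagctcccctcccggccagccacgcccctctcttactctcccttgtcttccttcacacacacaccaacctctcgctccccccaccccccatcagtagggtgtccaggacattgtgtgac
Dll4, chr2:119325534-119325783, plus strand: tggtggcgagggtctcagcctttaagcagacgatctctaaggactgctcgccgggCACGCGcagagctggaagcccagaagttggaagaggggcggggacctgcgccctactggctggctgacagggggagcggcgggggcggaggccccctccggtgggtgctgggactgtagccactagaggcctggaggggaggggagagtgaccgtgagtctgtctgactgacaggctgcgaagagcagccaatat
Windows were matched for 8 of the 10 genes, Dll1 with more than 1. The HES site was found in 4 of the 8, namely Notch2, Jag1, Dll1 (in 1 of its windows) and Dll4, and in 7.62% of all 32851 windows of this length. The first count is of genes and the second of windows. The 7.62% was not matched for the share of G and C in a window, which was 56% to 87.2% for these genes. In Notch2 the match begins 42 bases before the start, and in Dll4 195 bases before it. TGGGAA or its reverse complement TTCCCA, the core of the RBPJ motif, was found in none of the 8 and in 21.6% of all windows. Both strands were searched, and the motifs do not overlap each other. Of the 4 windows shown, those of Notch2 and Dll4 had the HES site and those of Notch1 and Notch4 did not. A match says only that these letters are present, and its absence only that they are not in this window.

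All 4 ligands were expressed at low levels, from 0.623 to 3.74 FPKM. Jag1 (chromosome 2, 137081456 to 137116644, minus strand) stood at 3.74, 2.04 and 1.49 FPKM across OE 1 to OE 3, whereas the library labelled Ctrl 1 had 1.85 and Ctrl 2 and Ctrl 3 had 1.15 and 1.43. Jag2 (chromosome 12, 112907819 to 112929776, minus strand) stood at 2.76, 1.17 and 1.37 FPKM across OE 1 to OE 3, whereas the library labelled Ctrl 1 had 1.62 and Ctrl 2 and Ctrl 3 had 0.623 and 0.793. Both were highest in OE 1 and lowest in Ctrl 2, and in both the library labelled Ctrl 1 lay between OE libraries. The differences were 0.42 (SE 0.27, limma adjusted p = 0.583) and 0.45 (SE 0.29, adjusted p = 0.588), and they moved to 0.16 and 0.21 without OE 1. Dll4 (chromosome 2, 119325784 to 119335962, plus strand), a ligand of sprouting vessels, stood at 2.54, 1.49 and 1.16 FPKM across OE 1 to OE 3, whereas the library labelled Ctrl 1 had 1.99 and Ctrl 2 and Ctrl 3 had 0.807 and 0.753. Again Ctrl 2 and Ctrl 3 were the lowest, and the difference of 0.34 (SE 0.29, limma adjusted p = 0.674) was within the spread. It ranged from 0.13 without OE 1 to 0.58 without the library labelled Ctrl 1, with 0.22 without Ctrl 2 and 0.20 without Ctrl 3.

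Dll1 differed from the other ligands in the order of its low libraries, by a small margin. It (chromosome 17, 15367354 to 15376872, minus strand) stood at 1.64, 1.38 and 0.795 FPKM across OE 1 to OE 3, whereas the library labelled Ctrl 1 had 1.64 and Ctrl 2 and Ctrl 3 had 0.891 and 0.896. OE 3 was its lowest library, just below Ctrl 2 and Ctrl 3, and the difference between groups was 0.09 (SE 0.23, limma adjusted p = 0.905). It passed the filter on low values only through OE 1, OE 2 and the library labelled Ctrl 1. Its values rest on about 112 to 236 fragments each, taking the longest coding transcript as its length, so counting error alone is 6.51% to 9.44%. OE 3, Ctrl 2 and Ctrl 3 rest on about 112, 114 and 133 of these, so their order is not settled.

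On the log2(FPKM + 1) scale with all 6 libraries, the 2 target genes had the largest differences among the 10. As a ratio of mean FPKM, Hey1 (1.96) was followed by Notch3 (1.77), Jag2 (1.75) and Hes1 (1.71). Hey1 (chromosome 3, 8663359 to 8667256, minus strand), a repressor that acts downstream of Notch in osteoblasts and vessels, stood at 8.47, 5.69 and 3.66 FPKM across OE 1 to OE 3, whereas the library labelled Ctrl 1 had 7.69 and Ctrl 2 and Ctrl 3 had 0.727 and 0.670. Ctrl 2 and Ctrl 3 were far below the rest, with about 61 and 65 fragments each and a counting error of 12.8% and 12.4%. The log2 difference of 1.19 (SE 0.65, limma adjusted p = 0.563) did not pass, the group means being 5.94 ± 2.42 FPKM for OE and 3.03 ± 4.04 for Ctrl (SD, n = 3). Leaving out the library labelled Ctrl 1 gave 1.97 (SE 0.30), which passed, with a limma adjusted p of 0.0202, in a comparison where 4.25% of all genes were called higher in OE. Without Ctrl 3 the difference was 0.78. Of the libraries that remain without the one labelled Ctrl 1, Hey1 met the filter only in OE, where it is high, so this pass is given as a description; with all 6 libraries, Hey1, Jag2 and Dll4 met it only in OE and the library labelled Ctrl 1. In bulk RNA, fewer cells that express a gene and less of its RNA per cell cannot be told apart.

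Hes1 (chromosome 16, 30064384 to 30067796, plus strand) stood at 7.18, 5.05 and 9.13 FPKM across OE 1 to OE 3, whereas the library labelled Ctrl 1 had 7.30 and Ctrl 2 and Ctrl 3 had 2.95 and 2.27. It is a basic helix-loop-helix repressor that answers to Notch in many tissues. Unlike every other gene of the 10, it was highest in OE 3, the library in which all 11 measured B-cell markers were also highest. Those markers summed to 547 FPKM there and to 60.3 to 127 in the other libraries. All 9 measured erythroid markers were highest there too, with a sum of 45392 FPKM against 1400 to 10054 elsewhere. So were 7 of 8 megakaryocyte markers and 6 of 8 marrow stroma markers. Outside OE 3, however, the erythroid, megakaryocyte and marrow stroma sums were highest in Ctrl 2 and Ctrl 3, where Hes1 was lowest. The erythroid sums there were 10054 and 5052 FPKM, and the megakaryocyte sums 1549 and 1278. The B-cell sum did not have that order. The part of these cells in the level of Hes1 was not tested. The difference was 0.74 (SE 0.37, limma adjusted p = 0.560), which moved to 1.14 without the library labelled Ctrl 1 (adjusted p = 0.0576) and to 0.47 without Ctrl 3. Without both the library labelled Ctrl 1 and OE 3, Hes1 passed at 0.97 (limma adjusted p = 0.0295) and Hey1, with the same limit of the filter, at 2.23 (adjusted p = 0.00133), where 7.92% of all genes were called higher. The libraries left out were chosen with earlier results of these data known, and Hes1 was highest in OE 3. Both passes are therefore given as descriptions.

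**Figure D1:**
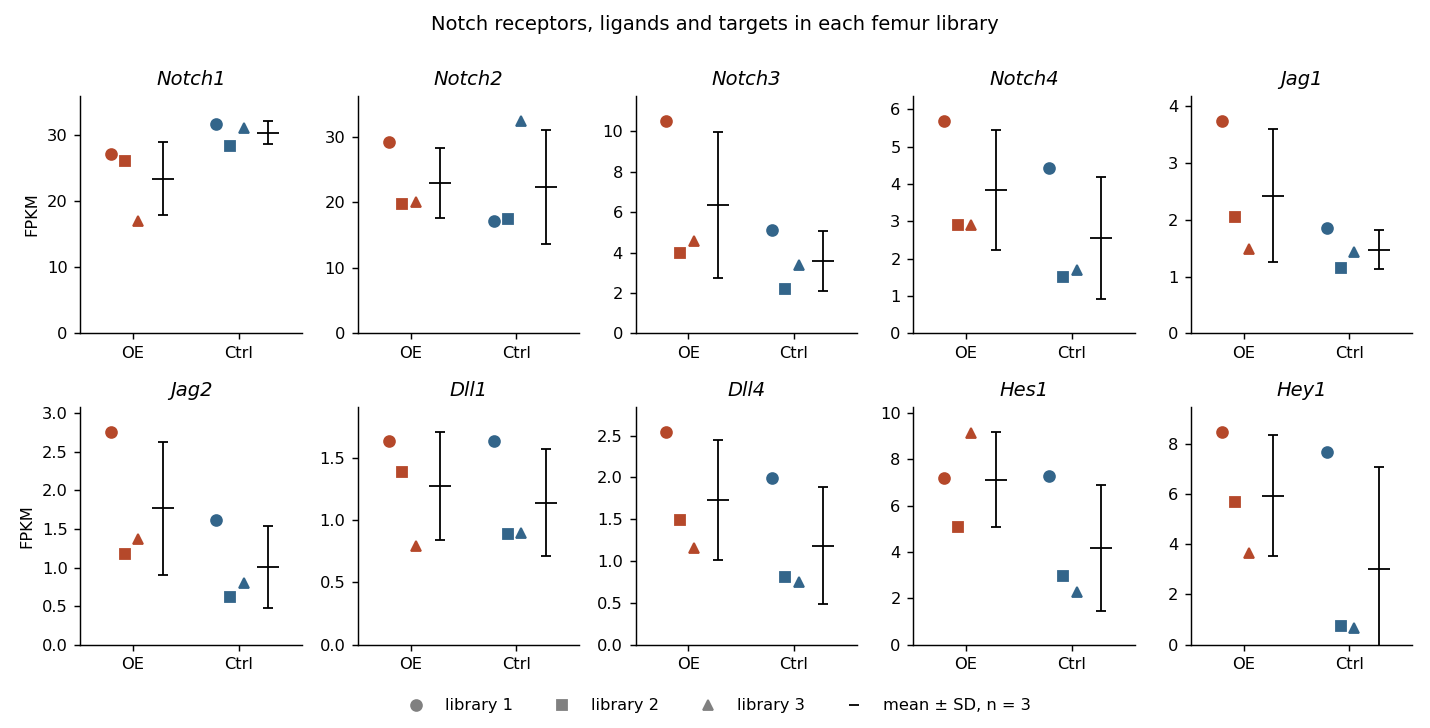
FPKM of each Notch gene (vertical axis, starting at 0, scale set per gene) in the OE and Ctrl libraries; marker shape gives the library number and black bars the mean ± SD of 3 libraries, with the lower bar of Hey1 in Ctrl cut at 0. Blue circles, the library labelled Ctrl 1, sit with the OE libraries for Notch4, Dll4, Hes1 and Hey1, while Ctrl 2 and Ctrl 3 are lowest in 7 of the 10 genes.

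Over all 6 libraries, none of the 10 genes passed a limma adjusted p of 0.05, and neither did any of the 12177 genes tested (0%). At an unadjusted p under 0.05 there were 0 of the 10 and 999 of all genes. In 9 of the 10 the difference was positive, with a median of 0.44, beside 5316 positive of 12177 and a median of -0.04 over all genes. Without OE 1, 7 of the 10 were positive and their median was 0.19. For none of the 10 was every OE library above every Ctrl library, which held for 4.59% of all genes. Ctrl 2 and Ctrl 3 were the 2 lowest libraries for 7 of the 10, namely Notch3, Notch4, Jag1, Jag2, Dll4, Hes1 and Hey1, and for 16.7% of all genes. OE 1 held the highest value of 7 genes: Notch3, Notch4 and the 4 ligands, and Hey1.

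**Figure D2:**
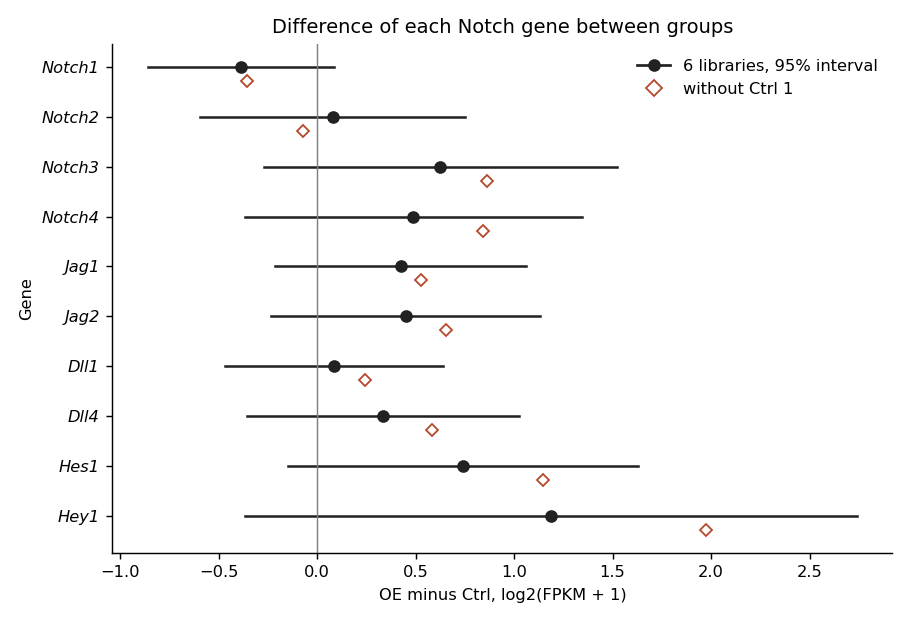
Log2 difference of each gene, OE minus Ctrl (horizontal axis), from limma with all 6 libraries (black, with its 95% interval) and without the library labelled Ctrl 1 (open diamonds, interval not drawn). All black intervals include 0; leaving out that library moves Hey1 from 1.19 to 1.97 and Notch2 from 0.08 to -0.07.

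Levels formed 2 tiers. In both groups the lowest Notch2 value lay above the highest Hes1 value, which set Notch1 and Notch2 apart from the other 8. Every other pair of neighbours in the order of mean FPKM overlapped. In OE that order ran Notch1, Notch2, Hes1, Notch3, Hey1, Notch4, Jag1, Jag2, Dll4, Dll1, from 23.4 ± 5.58 to 1.27 ± 0.434 FPKM (SD, n = 3). In Ctrl the first 7 places were the same, from Notch1 at 30.4 ± 1.76 FPKM, and Dll4, Dll1 and Jag2 followed, the last at 1.01 ± 0.532.

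Within a library, shares of the receptor sum do not depend on how the library was scaled. Notch3 and Notch4 together made up 22.4%, 13.0% and 16.8% of the 4 receptors across OE 1 to OE 3, whereas the library labelled Ctrl 1 had 16.4% and Ctrl 2 and Ctrl 3 had 7.51% and 7.43%. The receptor sum itself showed no such split, at 72.4, 52.8 and 44.4 FPKM across OE 1 to OE 3, whereas the library labelled Ctrl 1 had 58.4 and Ctrl 2 and Ctrl 3 had 49.5 and 68.5. The ligand sum did, at 10.7, 6.09 and 4.82 FPKM across OE 1 to OE 3, whereas the library labelled Ctrl 1 had 7.09 and Ctrl 2 and Ctrl 3 had 3.48 and 3.87. Receptors thus outweighed the 4 ligands 6.78-fold to 9.20-fold across OE and the library labelled Ctrl 1, with 14.2-fold and 17.7-fold for Ctrl 2 and Ctrl 3. The Hes1 to Hey1 ratio was 0.847, 0.887 and 2.498 across OE 1 to OE 3, whereas the library labelled Ctrl 1 had 0.949 and Ctrl 2 and Ctrl 3 had 4.06 and 3.39. Hey1 was therefore above Hes1 in 3 libraries and below it in the other 3, OE 3 among them. Of 14 such sums, ratios and shares compared between groups, the smallest exact two-sided permutation p was 0.1 (Benjamini-Hochberg adjusted p = 0.467), for the share of Dll1 among ligands, which averaged 18.2 ± 3.97% for OE and 24.0 ± 1.46% for Ctrl (SD, n = 3).

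**Figure D3:**
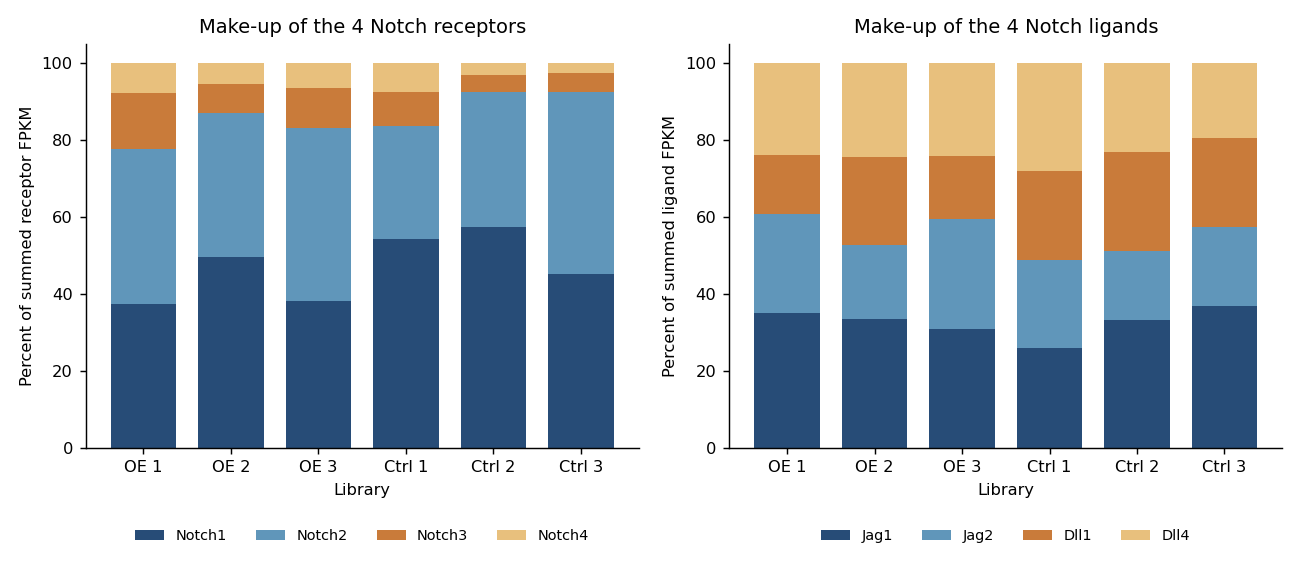
Share of each receptor (left) and each ligand (right) in the summed FPKM of its class, in percent (vertical axis), with 1 bar per library. Notch3 and Notch4 shrink to 7.51% and 7.43% in Ctrl 2 and Ctrl 3, while the share of Dll4 among ligands stays between 19.5% and 28.1%.

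Markers of the cells known to carry these genes were also lower in Ctrl 2 and Ctrl 3, to differing degrees. For endothelium, whose 12 listed markers were above 0 in each library, the summed level was 142 to 194 FPKM across OE, whereas the library labelled Ctrl 1 had 181 and Ctrl 2 and Ctrl 3 had 129 and 121. Pecam1, an adhesion molecule of endothelium and blood cells, stood at 29.0, 21.9, 24.8, 26.1, 23.9 and 23.7 FPKM in the order OE 1 to Ctrl 3. Only 5 of the 12 endothelial markers had both Ctrl 2 and Ctrl 3 below the other 4 libraries. The 10 mural cell markers, none at 0, summed to 82.0 to 160 FPKM across OE, whereas the library labelled Ctrl 1 had 125 and Ctrl 2 and Ctrl 3 had 54.4 and 60.3, and 9 of the 10 had those 2 libraries lowest. Rgs5, a regulator of G-protein signalling in pericytes, stood at 35.9, 15.3 and 14.7 FPKM across OE 1 to OE 3, whereas the library labelled Ctrl 1 had 18.5 and Ctrl 2 and Ctrl 3 had 7.40 and 8.20.

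By summed level, osteoblast markers showed the widest gap of the bone and vessel lists. Of 10 markers, Col1a1 and Col1a2 were left out of the sum, since the library labelled Ctrl 1 lists both at 0, as does OE 1. The other 8 summed to 4101 to 6560.0 FPKM across OE, whereas the library labelled Ctrl 1 had 5733 and Ctrl 2 and Ctrl 3 had 450 and 363. Of all 10 osteoblast markers 7 had those 2 libraries lowest. Osteocyte markers, leaving out Pdpn, listed at 0, summed to 268 to 732 FPKM across OE, whereas the library labelled Ctrl 1 had 500 and Ctrl 2 and Ctrl 3 had 144 and 191. Of the 8 osteocyte markers 5 had those 2 libraries lowest, and Fgf23 and Cd44 did not. Skeletal muscle markers were split the same way: all 9 measured were lowest in Ctrl 2 and Ctrl 3, which summed to 240 and 354 FPKM, beside 1504 in the library labelled Ctrl 1 and 1305 to 1684 across OE. The part of these cell types in the levels of the Notch genes was not tested.

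**Figure D4:**
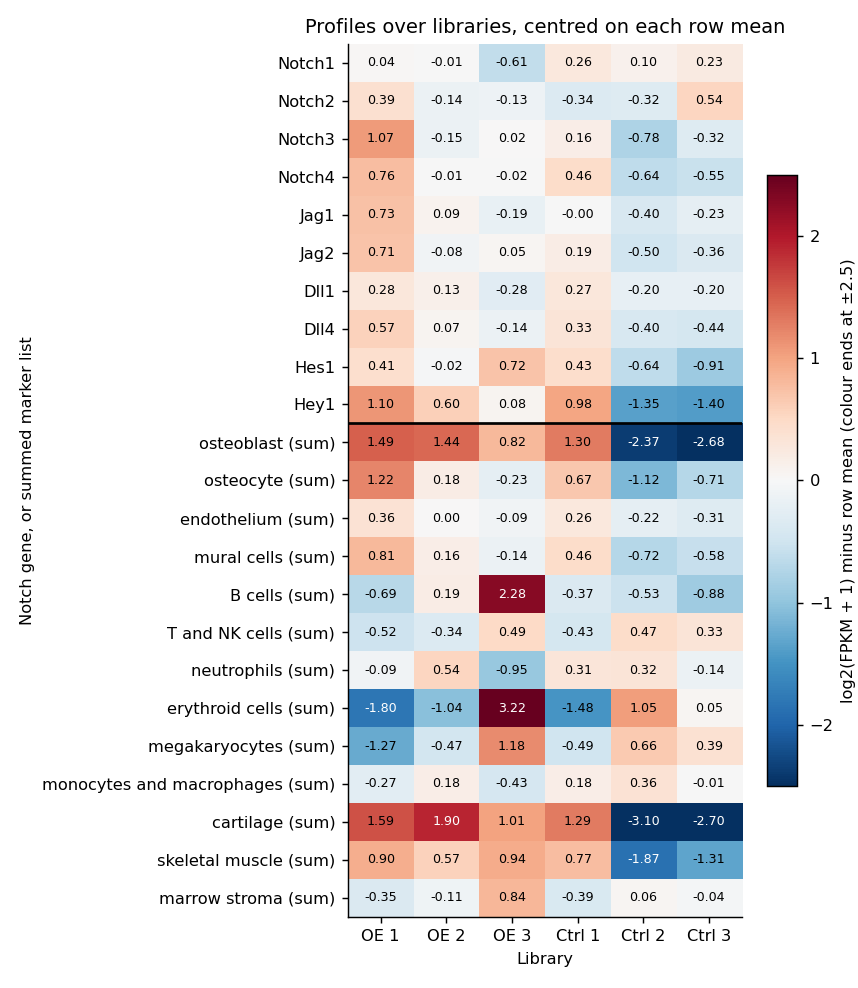
Centred profiles over the 6 libraries: log2(FPKM + 1) minus the row mean, for the 10 Notch genes (above the line) and the summed level of each marker list (below it); numbers give the values and colour is cut at ±2.5. Hey1 and the osteoblast, osteocyte, endothelium, mural, cartilage and skeletal muscle rows are lowest in Ctrl 2 and Ctrl 3, and Notch1 and Notch2 are not.

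The genes with the most similar profiles were found by the root mean square difference between centred log2(FPKM + 1) profiles over the 6 libraries, among 4316 genes with a standard deviation of at least 0.3. For Hey1 they were P3h1 at 0.088, Creb3l1 at 0.091 and Mxra8 at 0.094, for Hes1 Mfap4 at 0.057, Dusp14 at 0.11 and N4bp3 at 0.11. For Notch4 they were Pheta1 at 0.045, Cd248 at 0.047 and Cgnl1 at 0.063, and for Notch1 Man2b1 at 0.038, Dpp9 at 0.063 and Tbc1d14 at 0.069. Among the 10 genes themselves the closest pair was Jag2 and Dll4 at 0.14, followed by Notch4 with Jag2 at 0.16 and Notch4 with Dll4 at 0.16. The farthest was Notch2 and Hey1 at 1.13. These are descriptions over 6 libraries that differ in their make-up of cells.

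The rest of the pathway was read from 70 further genes, grouped by role, of which 56 passed the filter. None passed a limma adjusted p of 0.05, 27 differences were positive and 29 negative, and the median was -0.05, close to the -0.04 of all genes. Every OE library exceeded every Ctrl library for 2 of the 56, or 3.57%, and was below every Ctrl library for 9, or 16.1%, beside 8.97% of all genes. With trimmed-mean scaling that count was 7, or 12.5%, beside 7.65% of all genes. The wider pathway therefore did not share the positive median of the 10 genes.

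Differences of the genes that process the receptor were mostly negative, and none passed the test. Of 10 cleavage genes, 8 differences were negative, with a median of -0.29. Psenen, a gamma-secretase subunit and the most abundant, stood at 117, 163 and 97.7 FPKM across OE 1 to OE 3, whereas the library labelled Ctrl 1 had 160 and Ctrl 2 and Ctrl 3 had 133 and 104. Its groups overlapped widely. Aph1a, another subunit, stood at 46.2 ± 8.61 FPKM for OE and 57.0 ± 3.25 for Ctrl (SD, n = 3). Among 8 glycosylation genes the median was -0.08. Lfng, Mfng and Rfng, the Fringe enzymes that tune which ligand a receptor answers to, stood at 19.5 ± 2.11, 9.23 ± 0.756 and 9.82 ± 0.542 FPKM for OE and at 23.3 ± 2.54, 11.8 ± 0.817 and 12.8 ± 0.814 for Ctrl (SD, n = 3). For Mfng and Rfng the OE libraries were the 3 lowest, with limma adjusted p = 0.554 for each.

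Genes of the nuclear complex were even, with 8 differences positive and 8 negative and a median of -0.04. The most abundant were the corepressor genes Ctbp1, Hdac1 and Ncor1, with differences of -0.24, -0.26 and 0.10. Rbpj, the DNA-binding partner of the receptor, stood at 15.7, 13.3 and 11.6 FPKM across OE 1 to OE 3, whereas the library labelled Ctrl 1 had 12.6 and Ctrl 2 and Ctrl 3 had 15.7 and 19.3. It was chosen for its role after its values were seen, and it did not have the low values in Ctrl 2 and Ctrl 3 that Hes1 and Hey1 had. Trafficking and turnover genes had a median of 0.01 over 15, with Neurl3, Numb and Itch, of which Numb inhibits Notch and Itch encodes a ubiquitin ligase, at -0.44, -0.27 and 0.01. Of 6 other ligands and related genes, Egfl7 alone passed the filter, at 26.0 ± 2.77 FPKM for OE and 23.8 ± 8.52 for Ctrl (SD, n = 3); it is also on the endothelial list. Ccn3 and Dlk2, next in level, averaged 1.08 ± 0.510 and 0.161 ± 0.116 FPKM for OE against 0.439 ± 0.324 and 0.117 ± 0.203 for Ctrl (SD, n = 3), below the filter.

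Other targets spread the most. Of 14, 6 passed the filter, 5 with a positive difference, and the median was 0.48. Myc and Hes6, the most abundant, differed by -0.24 and 0.02, and Snai2, a transcriptional repressor found in mesenchymal cells, by 0.78 (SE 0.35, limma adjusted p = 0.554). Heyl, a close relative of Hey1 named here after its values were seen, stood at 4.04, 2.48 and 3.57 FPKM across OE 1 to OE 3, whereas the library labelled Ctrl 1 had 2.37 and Ctrl 2 and Ctrl 3 had 0.650 and 0.743. The OE libraries were its 3 highest, by only a narrow margin over the library labelled Ctrl 1. The difference was 1.02 (SE 0.31, limma adjusted p = 0.554), and without that library the adjusted p was 0.0216. In the libraries that then remain, Heyl met the filter only in OE, so this too is a description. Hey2, below the filter and also named after its values were seen, stood at 1.96, 0.736 and 0.561 FPKM across OE 1 to OE 3, whereas the library labelled Ctrl 1 had 0.899 and Ctrl 2 and Ctrl 3 had 0.0934 and 0.155. All 3 Hey family genes thus had Ctrl 2 and Ctrl 3 as their lowest libraries, and so did Hes1 and Snai2, while Hes6 and Myc did not. Among the 6 other targets tested 3 had this order, beside 16.7% of all genes.

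**Figure D5:**
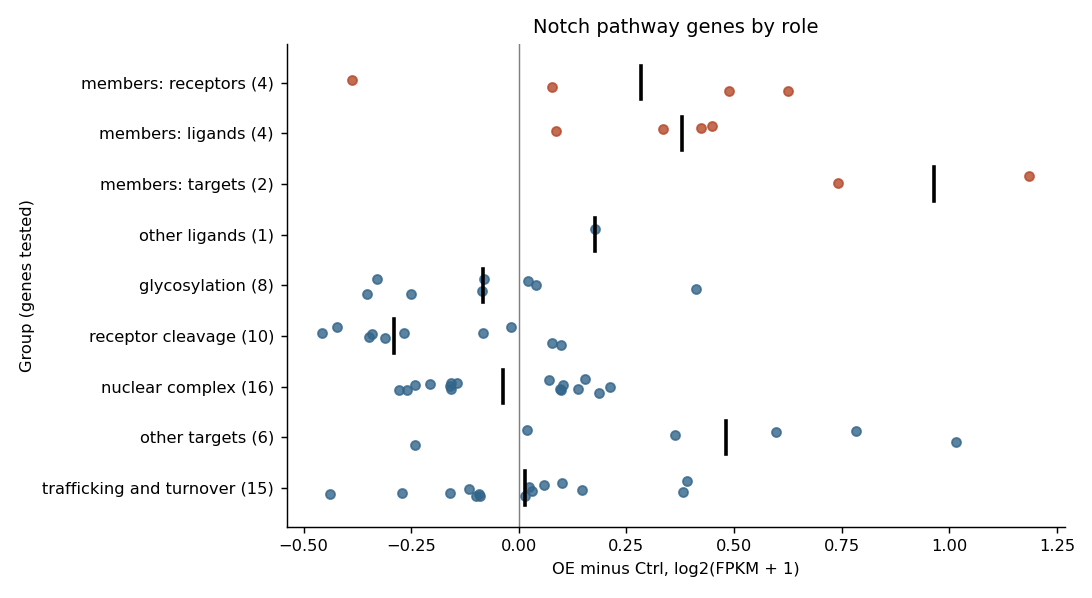
Log2 difference, OE minus Ctrl (horizontal axis), of each tested gene by role, with the 10 Notch genes in red, further pathway genes in blue and black bars for medians; vertical scatter within a row carries no value. The medians are 0.96 for Hes1 and Hey1 and 0.48 for other targets, and -0.29 for cleavage genes; no gene passed the test.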

How the data were processed

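RNA of 6 femur libraries, 3 OE and 3 Ctrl, was analysed, grouped and numbered by sample title. Values as deposited are FPKM by gene (per the file headers). The submitters' processing notes name TopHat2, Cufflinks, DESeq and mm10, with roles, versions and strand setting not given in the sources used here. FPKM falls for all genes of a library when a few are very abundant. Symbols and coordinates came from GENCODE M21 (GRCm38), with 21172 of 22824 rows matched, and promoters from RefSeq. For genes with 1 annotated transcript, FPKM times length less 210 bases fell within 0.1 of a whole number of steps for 88.2% to 91.0% of low values, which gave the depth; intervals from it cover counting error only.

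The 12177 genes that reached 1 FPKM in 3 or more libraries were compared by limma 3.58.1 (R 4.3.3, trend) on log2(FPKM + 1), a scale that understates changes of low genes, with Benjamini-Hochberg adjustment and a threshold of 0.05; single values by exact permutation. Python 3.11.15 made tables and plots. Members, lists and alternatives were chosen with earlier results of these data known. Named genes are the 10, the 3 most abundant of each pathway group, at most 2 abundant markers of a list, and the 3 most similar profiles of 4 of the 10; 1 gene that the rule names is not reported here, and Rbpj, Heyl, Hey2 and the markers Fgf23 and Cd44 were named outside it, after their values were seen. Alternatives were a pseudocount of 0.1, no filter, a filter of 5 FPKM, trimmed-mean scaling, no trend, array weights, a block on replicate number, and fewer libraries.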

Additional observations from a re-analysis of the deposited data

How the results depend on the processing

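Of 134 values for the 10 genes over the alternatives, 126 kept their direction and their side of the threshold, 4 came to pass it and 4 changed sign. The changes of sign were in Notch2, which ranged from -0.098 to 0.37 with 1 library left out and was negative without OE 1, the library labelled Ctrl 1 or Ctrl 2, and in Dll1, which ranged from -0.031 to 0.25 and was negative without OE 1. With array weights, limma called 1394 genes, 1 of the 10 (Hey1, 1.998, adjusted p = 0.0389) and 6 other pathway genes; without the library labelled Ctrl 1 and OE 3 it called 1388, 2 (Hes1 and Hey1) and 4. Leaving out 1 library at a time gave 0 to 597 genes, 0 to 1 of the 10, and 0 to 1 other pathway gene; the highest counts came without the library labelled Ctrl 1. Groups that do not overlap numbered 0 of the 10 with trimmed-mean scaling. Of all 12177 genes, OE then lay wholly below Ctrl for 931 and wholly above for 734. Such groups numbered 1 to 8 of the 10 with 1 library left out and 9 without both the library labelled Ctrl 1 and OE 3. The 8 came without the library labelled Ctrl 1. Groups of fewer libraries separate more easily, and the share of all genes with libraries left out is not given here. The 8 and 9 therefore cannot be read as particular to the Notch genes. The median of the 10 was 0.19 to 0.62 with 1 library left out. The median of other pathway genes was 0.0011 with trimmed-mean scaling and -0.078 to -0.0017 with 1 library left out. Wnt7b differed by 2.05 with a pseudocount of 0.1 and by 0.65 with a pseudocount of 1, which understates changes of low genes. The cause of the other shifts was not tested. With the replicate number as a block limma called no gene (1797 at an unadjusted p under 0.05). The lowest limma adjusted p of the 10 was then 0.220 (Notch3), and Hey1 was at 0.246. Same-numbered libraries deviated together with correlations of 0.44, 0.09 and 0.31, and differently numbered ones with -0.62 to 0.42. Not every library matched its own number best. Whether equal numbers mark pairs was not tested, and the block served only as an alternative. The filter of 5 FPKM left 4 of the 10 genes. Depth limits Dll1, Jag2, Dll4 and Hey1 most, and 3 libraries a group limit every test.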
